A study of Mus musculus with 2 samples.

Results

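The Fscn1-positive mature dendritic cells were 72 of the 21258 cells kept in both libraries, 18 of 9989 in the primary tumour library and 54 of 11269 in the lymph node library. They made up 0.180% of kept tumour cells (95% exact Clopper-Pearson interval 0.107 to 0.285) and 0.479% of kept lymph node cells (0.360 to 0.625). Members were chosen on raw unique molecular identifiers (UMIs), each of which stands for 1 captured transcript. A member had over 200 detected genes, at most 5% of its UMIs in mitochondrial genes, at least 2 UMIs of Fscn1 and at least 1 of Ccr7. It also had at least 10 UMIs of H2-Aa, H2-Ab1 and Cd74 together, at most 1 of Cd3d, Cd3e and Cd3g, at most 1 of Cd79a and Cd79b, none of Siglech, and fewer than 20 of Krt8 and Krt18. The levels of these genes were therefore fixed by the choice and are given as a description only.

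By the labels, the samples came from C57BL/6J mice with tumours of HEVM3 cells, while the study's own text calls the tumours of these libraries EO771 and does not name the derivative. HEVM3 cells descend from the murine breast carcinoma line EO771 by repeated in vivo selection of lung metastatic cells that had been photoconverted in the draining lymph node. The selection marked exit by lymph node blood vessels. The study named the cells after high endothelial venules, where lymphocytes normally enter. Primary tumours and paired lymph nodes of 6 mice were each pooled into 1 library, and no file assigns cells to mice, so each tissue is 1 sample and no difference between them could be tested. Tumour tissue was dissociated with collagenases I and III and hyaluronidase, and lymph nodes with collagenase P, dispase II and DNase, so tissue and dissociation cannot be told apart.

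Dendritic cells take up antigen in tissues and present it to T cells. On maturation they lower uptake, raise costimulatory ligands and MHC, and gain the chemokine receptor CCR7, which guides them towards CCL19 and CCL21 in the lymphatic vessels and the T cell zone of lymph nodes. Fascin, the product of Fscn1, bundles actin filaments in their long dendrites. Cells in this state have been described in tumours as well as in nodes and often carry regulatory ligands such as PD-L1 beside the costimulatory ones.

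Among the tumour members Fscn1 ranged from 3 to 45 UMIs per cell with a median of 13, and among the lymph node members from 2 to 60 with a median of 11. Ccr7 ranged from 1 to 52 (median 15.5) in the tumour and from 2 to 42 (median 17) in the lymph node. The summed MHC class II UMIs of the rule ranged from 10 to 128 in the tumour and from 10 to 354 in the lymph node. Most members lay well inside the limits. Just inside the Fscn1 limit lay 3 lymph node members with 2 UMIs, and just outside it 1 tumour cell and 4 lymph node cells with 1 UMI that met every other condition. At the MHC class II limit, 2 members of each library had exactly 10 UMIs, while 2 tumour cells and 1 lymph node cell with 9 fell outside. The locus of Fscn1 is chr5:142960343-142973185 on the plus strand and that of Ccr7 is chr11:99144196-99155077 on the minus strand (GRCm38).

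The members held 1587 to 18113 UMIs in the tumour (median 4521) and 1704 to 12232 in the lymph node (median 5305), and their summed UMIs were 95037 and 304623. Levels below are UMIs per 1000000 UMIs of these sums (CPM), and intervals are 95% exact intervals that cover counting error only. CPM of 3' tag counts are compared for 1 gene between groups of cells and not between genes. A sum cannot tell fewer cells with a transcript from less transcript per cell, so per-cell values are given where a result turns on them. The libraries shared 47 barcodes, and 1 lymph node member and no tumour member carried one of them. A doublet score (Scrublet) placed no tumour member above the 94th percentile of its library. In the lymph node the caller marked no cell and gave no information on the members.

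One tumour member stood apart. It held 18113 UMIs, 19.1% of all UMIs of the tumour members, where the next largest held 8112. It had a single Ccr7 UMI, 7 of Fscn1 and 9 of Krt8 and Krt18 together. It also held 78 UMIs of Acta2, 69 of Tagln and 57 of Sparc, genes of contractile and matrix-forming stromal cells that had 0 UMIs in the other 17 tumour members. Of the macrophage list it held 11 UMIs, against 0 in the other 17. Of the conventional dendritic cell list it held 1 UMI, against 113. Ratios and list counts were also computed without this cell, an exclusion chosen after the data were seen. They are given both ways for many of the calls and values that turned on it.

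The label was checked against dendritic cell markers that the rule did not use. Of 7 conventional dendritic cell markers, 6 had UMIs in both libraries and Kmo had none. Their summed level was 1200 CPM (989 to 1441) in tumour members and 1270 CPM (1147 to 1404) in lymph node members, against 22.7 and 56.1 CPM in all other kept cells. Flt3, the receptor for the growth factor that sustains conventional dendritic cells, was seen in 9 of 18 tumour and 24 of 54 lymph node members. Zbtb46, a transcription factor of the conventional lineage, was seen in 5 and 22. Cd83, a maturation marker, was seen in 16 and 52 and supplied 631 and 745 CPM of the sums. Itgax had only 3 and 10 UMIs and was lower than in the Fscn1-low dendritic cells described below (log2 ratios -3.15 and -1.65). Against the same cells Batf3 was higher (2.04 and 1.72), and Dpp4 differed by -0.40 and -0.13.

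Markers of the 2 conventional subsets were partly detected. Of 11 type 1 markers, 3 had UMIs in tumour members and 6 in lymph node members. Xcr1, Itgae, Tlr3, Snx22 and Cxcr3 of the type 1 list had 0 UMIs in the members of both libraries, which allows up to 31.6 CPM in the tumour and 9.85 CPM in the lymph node. Irf8, a type 1 factor that plasmacytoid and B cells also use, stood at 600 CPM (454 to 777) in the tumour and 647 CPM (560 to 744) in the lymph node. Of 10 type 2 markers, 9 had UMIs in tumour members, Itgam, Clec10a and Csf1r only in the largest cell, and 5 had UMIs in lymph node members. Klf4 had 9 and 54 UMIs, Sirpa 8 and 16, Irf4 5 and 6, and Mgl2 7 and 0, while Cd209a was at 0 in both. The summed type 2 list was 1989 CPM in the tumour and 742 CPM in the lymph node, and the chemokine gene Ccl17 supplied 1631 and 483 of these. The members thus carried lineage genes shared by conventional dendritic cells, and no subset was assigned.

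Of other cell types, the 6 NK cell markers were all at 0 in both libraries. Adgre1, C1qa, C1qc, Apoe, Mrc1 and Mertk of the 11 macrophage markers were at 0 in both, and the list summed to 116 CPM in the tumour, all of it in the largest cell, and to 19.7 CPM in the lymph node. The only T cell list gene in tumour members was Il7r, which mature dendritic cells are also known to express, with 40 UMIs. In the lymph node 6 of the 10 T cell list genes had UMIs, led by Il7r with 42 and Cd8a with 8. The B cell list summed to 10.5 CPM in the tumour and 95.2 CPM in the lymph node, mostly from Igkc (26 UMIs), against 4338 CPM in the other lymph node cells. The fibroblast list had 26 UMIs in tumour members, 21 of them in the largest cell. The monocyte list stood above the other kept cells in tumour members, at 326 CPM (222 to 463) against 140 CPM, led by Plac8 with 15 UMIs in the largest cell and 15 in the others, while Ly6c2, Ccr2, Chil3 and F13a1 were at 0, and in lymph node members it was at 9.85 CPM. The plasma cell list was also above them in the tumour, at 221 CPM (137 to 338) against 145 CPM, with Jchain and Mzb1 at 0. The plasmacytoid list was at 568 CPM (427 to 741) against 908 CPM in the tumour, with 22 UMIs in the largest cell and 32 in the others, and at 279 against 730 CPM in the lymph node. The part of these lists in the results was not tested.

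**Figure D1:**
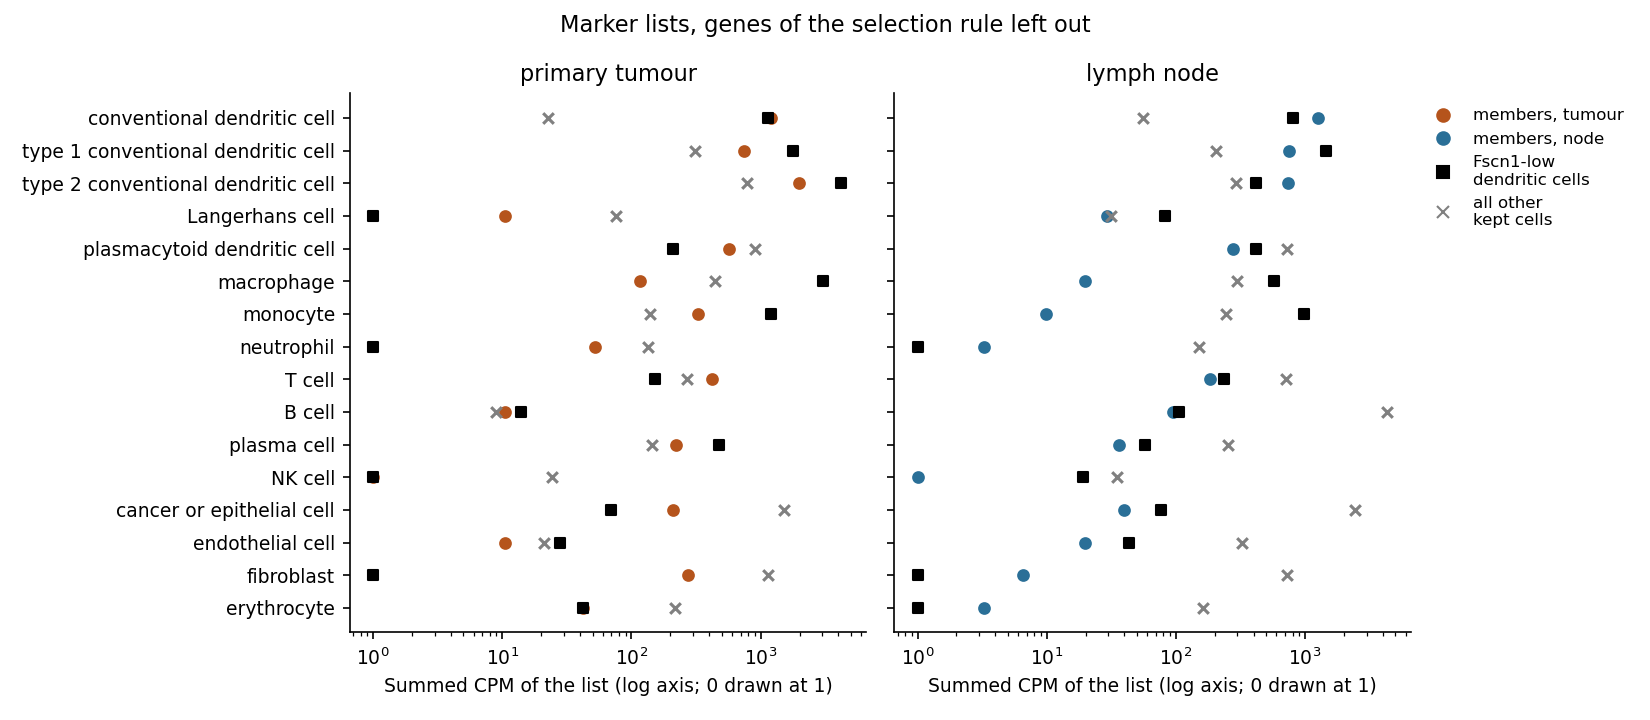
Summed CPM of 16 cell type marker lists (log axis, 0 drawn at 1) in members (circles), Fscn1-low dendritic cells (squares; chosen in part on Flt3, Zbtb46 and other list genes) and all other kept cells (crosses), for each library. The conventional dendritic cell list stands at 1200 and 1270 CPM in members and at 22.7 and 56.1 CPM in the other cells, and the NK cell list is at 0 in members of both libraries.

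To describe what sets the members apart, they were set beside conventional dendritic cells without Fscn1 and Ccr7 UMIs in the same library. These Fscn1-low cells met the same MHC class II, T cell, B cell, Siglech and keratin limits, had at most 3 C1q UMIs and at least 2 UMIs of Flt3, Zbtb46, Xcr1, Clec9a, Cd209a and Clec10a together. They were 18 tumour cells (median 3053 UMIs) and 23 lymph node cells (median 8355 UMIs). Their makeup differed between tissues: the type 2 list summed to 4219 CPM in the tumour and 414 CPM in the lymph node, and the macrophage list to 3022 and 573 CPM. With 1 library per tissue, a gene was called when it was at least 2-fold apart in the same direction in both libraries, with no test. Of 450 genes with at least 50 UMIs in each library, 45 (10.0%) were higher in members and 23 (5.11%) lower, beside medians over all 450 of 0.05 (log2) in the tumour and -0.02 in the lymph node. Without the largest tumour cell, which also changed the genes that reached the limit, 44 were higher and 28 lower. The shares of 10.0% and 5.11% are the background for the list counts below.

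Chemokines that draw T cells were among the genes furthest above the Fscn1-low cells. Ccl22, a ligand of CCR4 on regulatory and other T cells, was at 3967 CPM in tumour members against 83.5 CPM in Fscn1-low cells (log2 ratio 5.46, interval 4.43 to 7.02). The lymph node values were 1740 and 4.82 CPM (7.91, 6.01 to 13.80). Ccl5, a chemokine of T cells and other leukocytes, was higher by 4.54 in the tumour and 6.08 in the lymph node. Ccl4, an inflammatory chemokine of macrophages and activated T cells, went the other way: 42.1 against 2200 CPM in the tumour and 3.28 against 323 CPM in the lymph node. Of 6 chemokines compared, these 2 were higher in both libraries, Ccl4 was lower, and Ccl17, Cxcl16 and Cxcl2 were not called, although Cxcl16 passed 2-fold higher in both without the largest tumour cell (0.90 in the tumour with it, 1.10 without). Ccl17 was at 1631 against 1323 CPM in the tumour, where Fscn1-low cells also held it, and at 483 CPM against 0 in the lymph node, at least 33.4-fold higher.

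Cd40, the receptor through which helper T cells license dendritic cells, was at 537 against 13.9 CPM in the tumour (log2 ratio 4.70, 2.73 to 10.60) and at 394 against 9.63 CPM in the lymph node (5.04, 3.47 to 8.42). Cd83 and Cd44 were the other costimulation genes compared and neither was called. Cd274, which encodes the inhibitory ligand PD-L1, was higher by 0.87 in the tumour and 1.41 in the lymph node and was not called, but it passed 2-fold without the largest tumour cell (1.11). Below the 50 UMI limit, Il4i1, an amino acid oxidase that dampens T cells, had 30 UMIs against 1 in the tumour (3.94, 1.91 to 9.85) and 132 against 3 in the lymph node (4.69, 3.33 to 7.20). Socs2, an inhibitor of cytokine signalling, had 48 against 1 (4.61, 2.63 to 10.51) and 158 against 0, at least 35.9-fold higher. Cd200, whose receptor restrains myeloid cells, had 26 against 0, at least 6.55-fold higher, and 52 against 1 (4.58, 2.61 to 10.48). Other genes of the list under the limit went the other way. Socs3, another inhibitor of cytokine signalling, had 3 UMIs against 28 (-3.43, -5.99 to -1.93) and 6 against 9 (-1.10, -2.91 to 0.52), and Havcr2, which encodes TIM-3, had 2 against 7 and 0 against 33.

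Part of the cytoskeleton list was higher as well. Of 11 genes compared, Marcks, Marcksl1, Lsp1 and Tbc1d4 were called higher and none lower, beside 10.0% and 5.11% of all genes compared. The list medians were 0.95 and 0.86. Without the largest tumour cell Cnn2 also passed 2-fold higher in both libraries, and Tmsb10 2-fold lower (tumour log2 ratios 1.01 and -1.38). Marcks, a link between membrane and actin, was seen in all 18 and all 54 members and was higher by 1.16 in the tumour and 2.08 in the lymph node. Tbc1d4, a regulator of vesicle traffic, was at 2199 against 27.8 CPM in the tumour and at 1595 against 111 CPM in the lymph node. The integrin subunit gene Itga4, used in adhesion to vessel walls, was higher by 1.94 and 1.92. Tpm1, an actin-binding tropomyosin, was higher by 5.25 (3.30 to 11.15) and 4.79 (3.22 to 8.17). The largest tumour cell held 54 of its 75 UMIs in tumour members, and without that cell the tumour ratio was 3.74. The other tumour members held 21 UMIs against 1 in tumour Fscn1-low cells, under the 50 UMI limit. Tpm1 thus reached the limit, and its place among the named genes, only through the largest cell.

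Of 6 survival genes compared, 4 were higher in both libraries and none lower, beside 10.0% and 5.11% of all genes compared. The list medians were 1.32 and 1.74 (0.81 in the lymph node with a limit of 20 UMIs). Serpinb9, an inhibitor of granzyme B, was at 1021 against 83.5 CPM in the tumour (log2 ratio 3.50, 2.44 to 5.09) and at 1146 against 62.6 CPM in the lymph node (4.14, 3.40 to 5.12). Serpinb6b, a related protease inhibitor, was higher by 5.11 (3.76 to 7.63) and 4.66. Bcl2a1b and Bcl2a1d, anti-apoptotic members of the Bcl2 family, were higher by 1.41 and 1.24 in the tumour and by 2.18 and 1.30 in the lymph node, but they are near-identical copies whose reads the counting could have split. Mcl1 and Pim1 were not called.

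In the NF-kappaB pathway, which drives much of dendritic cell maturation, Rel and Traf1 were called higher among 6 genes and none lower. The shares over all genes compared were 10.0% and 5.11%. Rel, which encodes the c-Rel subunit, was at 1389 against 585 CPM in the tumour and at 1536 against 535 CPM in the lymph node. Relb, a subunit used in the alternative branch of the pathway, fell below the 50 UMI limit, with 31 UMIs against 1 (3.99, 1.96 to 9.90) and 126 against 9 (3.18, 2.28 to 4.42). Tnfaip3, an inhibitor of the pathway, had log2 ratios of opposite sign, -1.46 in the tumour and 1.82 in the lymph node. The list medians were -0.16 in the tumour, or 0.06 without the largest cell, and 1.88 in the lymph node.

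A list of other genes known from mature dendritic cells had 8 of 10 called higher and none lower, beside 10.0% and 5.11% of all genes compared. The list medians were 2.29 and 3.90. Apol7c, an apolipoprotein L family gene, was at 610 CPM in tumour members and at 0 in Fscn1-low cells, at least 14.6-fold higher, and at 1087 against 4.82 CPM in the lymph node (log2 ratio 7.24, 5.33 to 13.13). It was not spread evenly over the cells: 9 of 18 tumour and 31 of 54 lymph node members had a UMI, and 1 tumour cell held 43.1% of the tumour UMIs. Cacnb3, a calcium channel subunit gene, was higher by 3.96 (2.34 to 7.35) and 6.22 (4.31 to 12.12). Cd63, a tetraspanin of late endosomes, was higher by 3.36 (1.93 to 5.89) and 4.54, and Tmem123 by 3.02 and 5.19. The locus of Apol7c is chr15:77524852-77533316 on the minus strand (GRCm38).

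Antigen handling went in both directions. H2-DMa, part of the H2-DM complex that loads peptide onto MHC class II, was lower in members, at 126 against 1003 CPM in the tumour (log2 ratio -2.94, -4.01 to -2.10) and at 167 against 660 CPM in the lymph node (-1.97, -2.47 to -1.50). The partner genes were under the 50 UMI limit in one or both libraries. H2-DMb1 had 3 UMIs against 19 and 12 against 131 (log2 ratios -2.88, -5.47 to -1.30, and -3.95, -4.99 to -3.15), while H2-DMb2 had 7 against 10 and 25 against 17, with intervals that include 0 (-0.89, -2.55 to 0.62, and -0.01, -0.94 to 0.98). H2-Eb1, a class II chain that the rule did not use, had log2 ratios of -0.97 and -1.28 and was not called, because the tumour value missed the 2-fold limit. Of the class I pathway, the proteasome activator genes Psme1 and Psme2 were called higher among 9 genes, and none was called lower. Without the largest tumour cell H2-K1 and Tapbp also passed 2-fold higher in both libraries, and Calr 2-fold lower (tumour log2 ratios 1.07, 1.06 and -1.39). With it H2-K1 was higher by 0.90 and 1.79, though reads of class I genes can be shared between near-identical copies.

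Lyz2, Cd53, Naaa, Plbd1 and Gm2a stood furthest below the Fscn1-low cells by the rule for naming genes. Psap and Gm2a, cofactors for lipid breakdown in lysosomes, had log2 ratios of -3.29 and -3.49 in the tumour and of -2.24 and -4.35 in the lymph node. Lyz2, lysozyme, was at 94.7 against 1462 CPM in the tumour, where all 9 UMIs were in the largest cell and the other 17 members had 0. The tumour log2 ratio was -3.88 with that cell and -7.82 without it. In the lymph node Lyz2 was at 3.28 against 467 CPM (-6.58, -12.47 to -4.64). Naaa and Plbd1, both hydrolases, had ratios of -3.65 and -3.60 in the tumour and of -4.37 (-6.91 to -2.95) and -6.70 (-10.08 to -5.15) in the lymph node. Cd53, a leukocyte tetraspanin, was at 42.1 against 682 CPM in the tumour and at 0 against 246 CPM in the lymph node, at least 24.9-fold lower. Ly6e was at 105 against 627 CPM in the tumour, where 8 of its 10 UMIs were in the largest cell, and at 3.28 against 693 CPM in the lymph node (-2.52 and -7.14, the latter with an interval of -13.04 to -5.22). The ratios were -2.18 and -2.87 for Fxyd5 and -2.41 and -2.06 for Lgals3, a galectin gene. Il1b, an inflammatory cytokine gene, was also lower, with ratios of -3.14 and -1.77. Lysosomal genes did not all lie on this side: Npc2, which carries cholesterol out of lysosomes and is named here after its values were seen, was called higher (1.04 and 1.17). The macrophage list itself was higher in the Fscn1-low cells, at 3022 against 116 CPM in the tumour and 573 against 19.7 CPM in the lymph node, and its part in these differences was not tested.

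**Figure D2:**
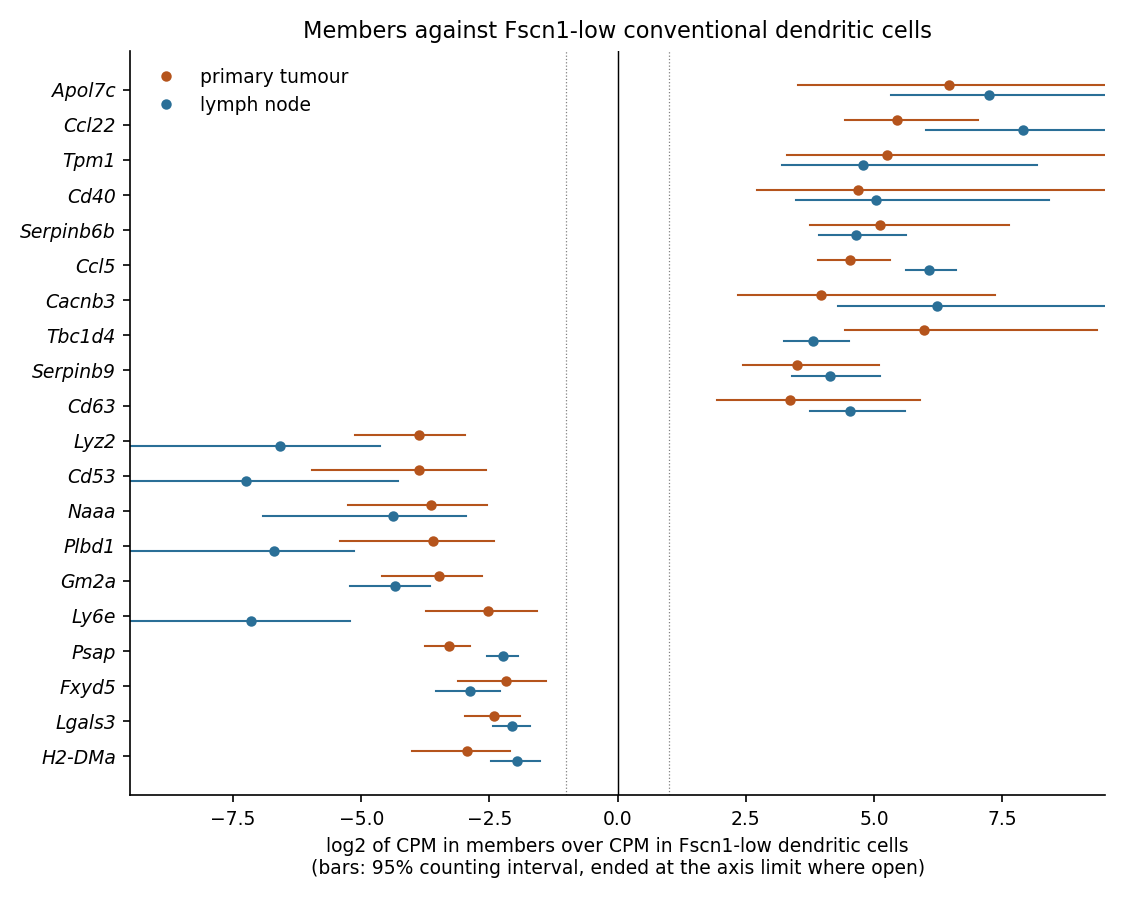
Log2 ratio of CPM in members over Fscn1-low conventional dendritic cells for the 10 genes furthest higher and the 10 furthest lower in both libraries (points), with 95% counting intervals (bars, ended at the axis limit where open) and dotted lines at 2-fold. Both libraries lie on the same side for all 20 genes, for example Ccl22 at 5.46 and 7.91 and Lyz2 at -3.88 and -6.58. Tpm1 owes its place to the largest tumour cell.

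Because NF-kappaB genes were among those higher in members, the 250 bases before each start site in RefSeq (GRCm38.p6) were searched on both strands for the NF-kappaB consensus, a motif of 10 bases. Of 45 higher genes, 38 matched the promoter table and 4 of these held the motif (10.5%). Of the 361 matched genes among all those compared, 31 held it (8.59%), as did 1 of 19 lower genes (5.26%) and 1204 of 27025 genes of the whole table (4.46%). The share among higher genes was thus close to that among all genes compared. The windows of the 4 higher genes are shown because Rel encodes a subunit of the factor itself and Ramp3 differed between the tissues, with the match in capitals, 5′ to 3′ on the strand of the gene. The matches begin 92, 51, 208 and 133 bases before the start sites, in the order shown.

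Rel, chr11:23771042-23771071: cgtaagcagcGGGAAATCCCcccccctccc
Ramp3, chr11:6658472-6658501: ggcctgggttGGGGCTCTCCgaggtcccgc
Pik3r1, chr13:101768406-101768435: ccagtcgcccGGGGCATCCCcgagccgggg
H2-Q7, chr17:35439012-35439041: gcccatggctGGGGATTCCCatctccccag

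Rel and Pik3r1 lie on the minus strand, and Ramp3 and H2-Q7 on the plus strand. A match describes the letters only, and reads of the class I gene H2-Q7 may come from its copies.

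The members of the 2 tissues were then compared with each other. Of 1099 genes with at least 50 UMIs over both libraries, 122 (11.1%) were at least 2-fold higher in the lymph node, 96 (8.74%) at least 2-fold lower, and 881 neither, with a median log2 ratio of 0.06. The lymph node members held more UMIs, so a gene of higher level there reached the limit at a lower CPM. With a limit of 20 UMIs the balance turned, to 287 higher and 309 lower. The list counts and medians between tissues used the same 50 UMI limit and share this tilt. Without the largest tumour cell 121 were higher and 97 lower, of which 102 and 79 were also called with it. Acta2, Tagln, Sparc, Thbs1 and Cald1 reached the 50 UMI limit only through that cell. Of the genes compared, 5 belong to the selection rule, and among these Fscn1 differed by -0.08 (-0.28 to 0.12) and Ccr7 by -0.30 (-0.48 to -0.12).

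**Figure D3:**
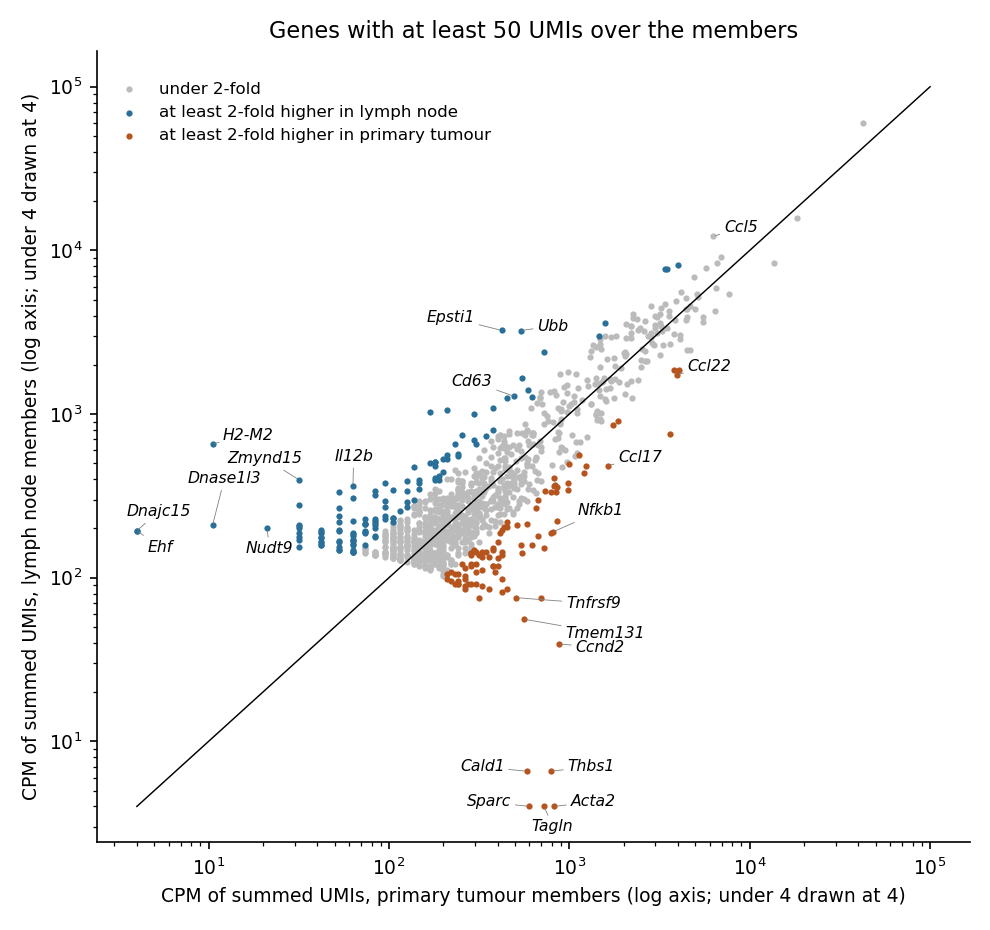
CPM of summed UMIs in tumour members (horizontal, log axis) against lymph node members (vertical, log axis) for 1099 genes, with values under 4 drawn at 4 and the line of equal level. Genes at least 2-fold higher in the lymph node (122) are blue and those higher in the tumour (96) are orange, and Acta2, Tagln, Sparc, Thbs1 and Cald1 owe their place to 1 tumour cell.

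H2-M2, a non-classical MHC class I gene at chr17:37480851-37483552 on the minus strand (GRCm38), was the gene furthest higher in the lymph node by the rule for naming genes. It had 1 UMI in 1 of 18 tumour members, 10.5 CPM (0.266 to 58.6), and 200 UMIs in 31 of 54 lymph node members, 657 CPM (569 to 754). The log2 ratio was 5.38 (3.47 to 11.27). Lymph node members ranged from 0 to 21 UMIs with a median of 2, so the single tumour cell lay inside their range. After thinning every cell to 1000 UMIs, the share of members with a UMI was 0.958% in the tumour and 37.2% in the lymph node, while 0.446% and 0.292% of T cells had a UMI before thinning. The T cells had at least 2 Cd3 UMIs and the same keratin limit, a limit added after the data were seen, and medians of 1912 UMIs in the tumour and 3080 in the lymph node. Fscn1-low cells had 0 UMIs of H2-M2 in both tissues.

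Epsti1, an interferon-inducible gene at chr14:77904239-78002657 on the plus strand (GRCm38), was at 421 CPM (301 to 573) in the tumour and 3243 CPM (3044 to 3452) in the lymph node. Tumour members ranged from 0 to 9 UMIs with a median of 1.5, and lymph node members from 0 to 112 with a median of 10, so the tumour range lay within the lower part of the lymph node range. The log2 ratio was 2.93 (2.49 to 3.44), and 2.62 without the largest tumour cell. The same ratio was -0.48 in Fscn1-low cells and -0.41 in T cells of these libraries. Of members, 72.2% in the tumour and 90.7% in the lymph node had a UMI, or 35.9% and 75.3% after thinning. T cells also held the transcript, with 37.9% and 35.6% of cells.

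Of the other genes named by the same rule, 5 had at most 3 UMIs in tumour members. Ehf, a transcription factor best known from epithelia, and Dnajc15, a mitochondrial chaperone gene, each had 59 UMIs in the lymph node and 0 in the tumour, at least 6.14-fold higher, in 14 and 31 of 54 members. Dnase1l3, a secreted nuclease of dendritic cells and macrophages, had 1 and 64 UMIs (3.75, 1.79 to 9.65). Zmynd15 had 3 and 121 UMIs (3.44, 2.07 to 5.95), and Nudt9 had 2 and 61 (2.94, 1.34 to 6.33). Ubb, a polyubiquitin gene with 51 UMIs (537 CPM) in tumour members, was higher by 2.58 in lymph node members, but also by 2.52 in Fscn1-low cells and 2.31 in T cells.

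Ccnd2, which encodes cyclin D2, stood furthest lower in the lymph node members. Its level was 873 CPM (696 to 1083) in the tumour, in 13 of 18 members, and 39.4 CPM (20.4 to 68.8) in the lymph node, in 5 of 54. Tumour members ranged from 0 to 20 UMIs with a median of 2, and lymph node members from 0 to 3 with a median of 0. The log2 ratio was -4.42 (-5.48 to -3.59), beside -2.69 in Fscn1-low cells and -0.15 in T cells. Mki67, a marker of dividing cells, had 2 UMIs in tumour members and 19 in lymph node members, and of 18 cell cycle genes only Hmgb2 reached 50 UMIs, with a ratio of 0.26 (-0.51 to 1.19).

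Tnfrsf9, the receptor 4-1BB, was at 505 CPM in tumour members and 75.5 CPM in lymph node members (log2 ratio -2.73, -3.53 to -2.00). The ratio was -2.58 in T cells, of which 39.7% in the tumour and 10.2% in the lymph node had a UMI. Bcl2l11, the pro-apoptotic gene that encodes Bim, had ratios of -2.40 in members and -2.45 in Fscn1-low cells. Nfkb1, which encodes the p105 and p50 proteins, was at 810 CPM (639 to 1013) in the tumour and 190 CPM (145 to 246) in the lymph node. The ratio was -2.09 (-2.61 to -1.58) in members, -1.95 in Fscn1-low cells and -0.04 in T cells. The other lower genes named by the rule were Tmem131 (-3.29), App (-2.35), Pkib (-2.26) and Sh3bgrl (-2.09), all on the log2 scale.

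**Figure D4:**
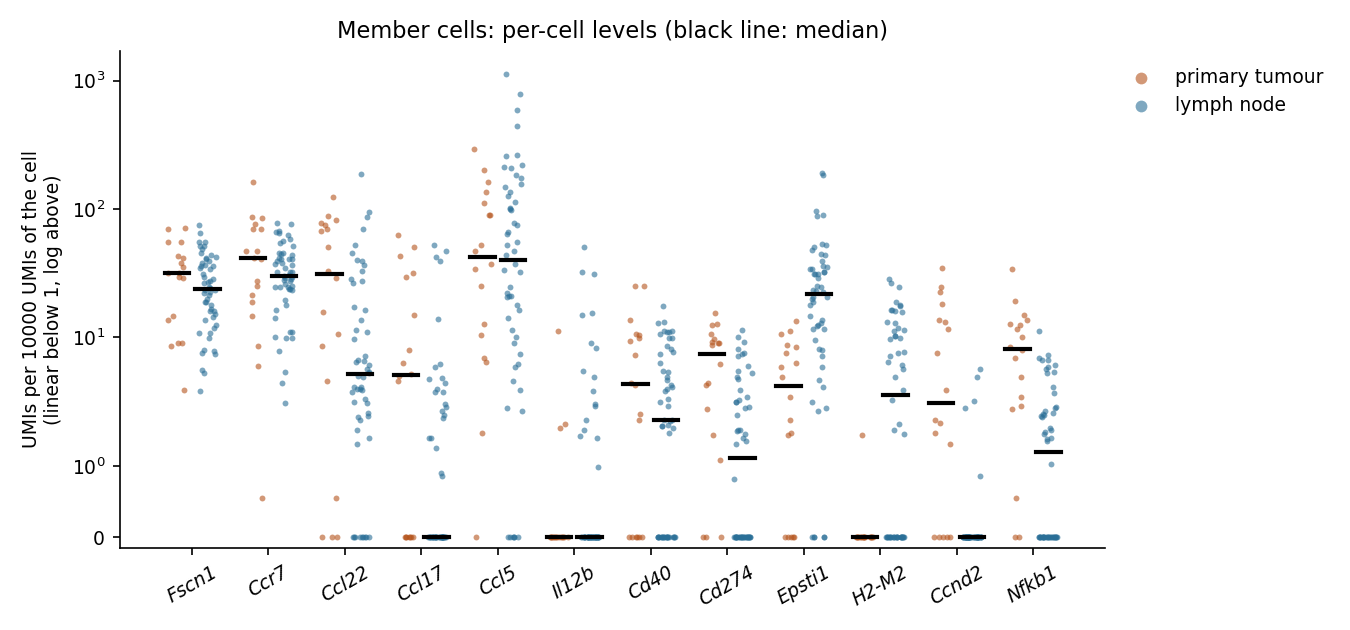
Level in each member (points; UMIs per 10000 UMIs of the cell, linear below 1 and log above) of 12 genes, with the median of each library as a black line. H2-M2 and Epsti1 lie higher in lymph node members, Ccnd2 and Nfkb1 higher in tumour members, and Il12b is at 0 in most cells of both.

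Of 4 chemokine genes compared between the tissues, Ccl17 and Ccl22 were called lower in the lymph node and none was called higher. Ccl22, at chr8:94745590-94751699 on the plus strand (GRCm38), ranged from 0 to 101 UMIs in tumour members with a median of 15, and from 0 to 117 in lymph node members with a median of 2. The level was 3967 CPM (3576 to 4388) in the tumour and 1740 CPM (1595 to 1894) in the lymph node, a log2 ratio of -1.19 (-1.38 to -0.99). The share of members with a UMI was 83.3% in both, and 69.8% and 49.4% after thinning, against 1.12% and 0.175% of T cells before it. The ranges of the cells overlapped, and 1 cell held 26.8% of the tumour UMIs and 1 held 22.1% of the lymph node UMIs.

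Ccl17, the other CCR4 ligand and a close neighbour of Ccl22 at chr8:94810453-94812036, was at 1631 CPM (1384 to 1909) in the tumour and 483 CPM (408 to 567) in the lymph node, a log2 ratio of -1.76 (-2.09 to -1.42). It had a UMI in 11 of 18 and 23 of 54 members. All 11 Ccl17-positive tumour members and 22 of 23 in the lymph node also had Ccl22. Ccl5 was higher in the lymph node, at 6292 CPM (5798 to 6817) against 12192 CPM (11803 to 12591), a ratio of 0.95 that misses 2-fold, and 1 lymph node cell held 18.4% of its 3714 UMIs. T cells also express Ccl5, with a UMI in 70.8% in the tumour and 17.3% in the lymph node. Cxcl16 differed by 0.43 (0.01 to 0.89), and Ccl19, a ligand of CCR7, had 0 UMIs in the tumour and 6 in the lymph node.

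Il12b, which encodes the p40 subunit of interleukin 12 and 23, was the cytokine gene called higher in the lymph node, with 6 UMIs in 3 tumour members and 111 in 17 lymph node members (63.1 and 364 CPM, log2 ratio 2.42, 1.36 to 4.01). Most members of both tissues had none, and 1 lymph node cell held 27.9% of its UMIs. The p35 subunit gene Il12a had 0 UMIs in both. Il12b and Ccl17 met in 5 lymph node cells, while 12 had Il12b alone, 18 had Ccl17 alone and 19 had neither. Their overlap was not tested. Il1b was at 526 and 282 CPM (-0.90, -1.42 to -0.37). Il15, which supports CD8 T and NK cells, had 4 and 27 UMIs.

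None of 5 costimulation genes was called, with a median of -0.24, or -0.45 without the largest tumour cell. Cd40 was at 537 CPM (400 to 706) in the tumour and 394 CPM (327 to 471) in the lymph node, a log2 ratio of -0.45 (-0.93 to 0.06) whose interval includes 0. Cd86 differed by -0.67 (-1.32 to 0.04) and Cd83 by 0.23 (-0.18 to 0.67). Cd80, under the 50 UMI limit, was at 253 CPM (162 to 376) in the tumour and 59.1 CPM (35.0 to 93.4) in the lymph node, in 12 of 18 and 12 of 54 members (-2.09, -3.06 to -1.15).

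Cd274 was called lower in the lymph node. It ranged from 0 to 5 UMIs in members of both tissues, with medians of 3 and 1. The level was 516 CPM (381 to 682) in the tumour and 210 CPM (162 to 268) in the lymph node, a log2 ratio of -1.30 (-1.85 to -0.73), and it was the 1 inhibitory gene of 4 called. The ratio was -1.85 in Fscn1-low cells and -1.58 in T cells, so the same direction was seen in other cells of these libraries. Pdcd1lg2, which encodes the other PD-1 ligand and was under the 50 UMI limit, had 19 UMIs in the tumour and 11 in the lymph node (-2.44, -3.69 to -1.32). Cd274 and Cd40 met in the same cell in 10 of 18 tumour members and 21 of 54 lymph node members. Il4i1 differed by 0.44 (-0.12 to 1.08), Socs2 by 0.03 (-0.44 to 0.54) and Cd200 by -0.69 (-1.39 to 0.06). Ido1, which encodes a tryptophan-degrading enzyme, had 0 UMIs in members of both.

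None of 5 migration genes was called, with a median of -0.52, but Rgs1 and St8sia4 passed 2-fold lower without the largest tumour cell (with it, the log2 ratios were -0.77 and -0.89). Itga4 was at 558 CPM in the tumour and 391 CPM in the lymph node (-0.52, -0.99 to -0.02), and Gpr183, which guides cells along oxysterol gradients, differed by 0.02 (-0.71 to 0.87). Of 14 cytoskeleton genes, Cdc42ep3, an effector of the small GTPase Cdc42, was called higher, with 10 and 105 UMIs (1.65, 0.78 to 2.81), and the list median was 0.25, or 0.00 without the largest tumour cell. Without that cell Vim also passed 2-fold higher (0.96 with it, 1.07 without) and Coro1a 2-fold lower (-0.76 and -1.02). Marcks differed by 0.23 (0.00 to 0.47).

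Of 12 class I pathway genes, H2-D1, Psmb10 and Psme2 were called higher in the lymph node and none lower, with a median of 0.55 beside 0.06 over all genes. Pdia3, a chaperone gene of the list, had 15 of its 19 tumour UMIs in the largest cell, and its log2 ratio went from -0.74 to 1.07 without that cell. H2-D1 was at 1463 and 3014 CPM (log2 ratio 1.04, 0.78 to 1.31), with the limit on class I copies given above. Psme2 was at 589 CPM (445 to 765) and 1402 CPM (1272 to 1541), a ratio of 1.24 against -0.04 in T cells and 0.65 in Fscn1-low cells. None of 7 class II pathway genes was called, with a median of 0.36, but Ctsz, a cathepsin gene, passed 2-fold lower without the largest tumour cell (-0.95 with it, -1.17 without). H2-Eb1 was at 1578 and 2997 CPM (0.92, 0.67 to 1.18). Clec7a, the beta-glucan receptor Dectin-1, was lower, at 673 against 181 CPM (-1.90, -2.45 to -1.36).

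Among 15 NF-kappaB pathway genes only Nfkb1 was called. Rel differed by 0.14 (-0.14 to 0.44), Relb by 0.33 (-0.23 to 0.96) and Traf1 by 0.39 (-0.04 to 0.85). Of 9 survival genes, Bcl2l11 was called lower and Bcl2l14 higher, the latter with 4 and 60 UMIs, 25 of them in 1 lymph node cell. Of the 23 other genes known from mature dendritic cells, 9 were called higher in the lymph node and 3 lower, with a median of 0.82, or 7 and 3 with a median of 0.52 without the largest tumour cell. The higher ones included Nudt17 (5 and 102 UMIs, 2.54, 1.40 to 4.32), Gadd45b (547 and 1664 CPM, 1.59), Cd63 (495 and 1284 CPM, 1.36) and Slco5a1 (4 and 48 UMIs). The lower ones were Tnfrsf9, Il7r (-1.61, -2.27 to -0.95) and Ramp3 (-1.54, -1.95 to -1.12). In T cells Il7r and Ramp3 were instead higher in the lymph node, by 1.23 and 2.45. Insm1, a transcription factor gene of the same list, had 0 UMIs in tumour members and 32 in lymph node members, at least 3.33-fold higher.

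**Figure D5:**
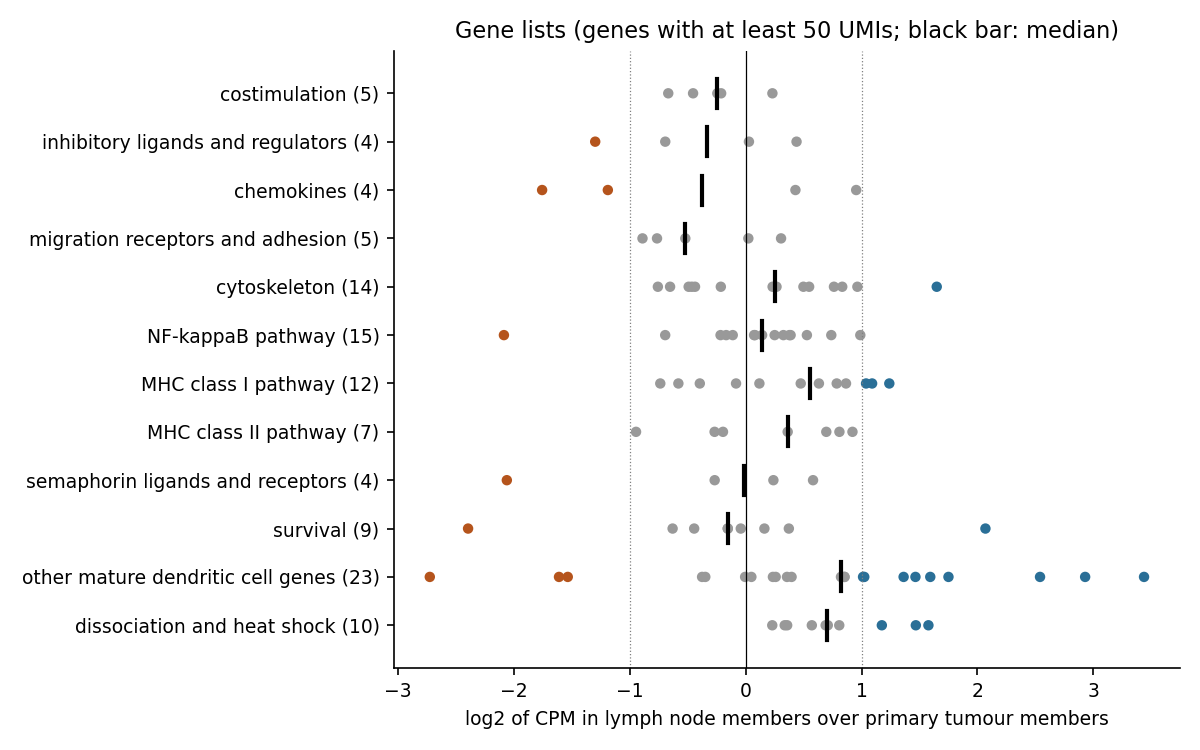
Log2 ratio of CPM in lymph node members over tumour members for each gene with at least 50 UMIs (points), by list, with the list median as a black bar, dotted lines at 2-fold and the number of genes in brackets. The median is 0.82 for other mature dendritic cell genes, 0.55 for the MHC class I pathway and -0.52 for migration genes. Over all genes compared it is 0.06, and genes of higher level in the lymph node met the 50 UMI limit more easily.

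Of 25 interferon response genes, 21 had UMIs in tumour members and 14 in lymph node members. They summed to 2136 CPM (1852 to 2451) in the tumour, against 1629 CPM (1347 to 1952) in Fscn1-low cells and 1047 CPM in all other kept cells. In the lymph node they summed to 696 CPM (605 to 796), against 193 CPM (138 to 262) and 529 CPM. The sum was thus higher in members than in the other kept cells of both libraries, while the intervals of members and Fscn1-low cells overlapped in the tumour. Between the tissues 2 of the genes reached 50 UMIs, and of these Gbp2, an interferon-induced GTPase, was called lower in the lymph node, at 547 against 141 CPM (-1.95, -2.57 to -1.34), beside -1.67 in T cells. Oasl2 had 19 UMIs in 6 tumour members and 0 in the lymph node, at least 20.3-fold lower there. Ifi47 had 18 and 2 UMIs (-4.57, -8.00 to -2.79), 13 of the 18 in 1 cell. The RNA editing and sensing list summed to 126 CPM (65.2 to 221) in tumour members and 46.0 CPM (25.1 to 77.1) in lymph node members. Adar, the RNA-editing gene of the study, had 0 UMIs in the tumour and 5 in the lymph node, and the RNA sensor gene Ifih1 likewise 0 and 5. The nucleic acid sensor gene Zbp1 had 7 and 1 (interval of the log2 ratio -9.98 to -1.53), and Eif2ak2, which encodes the kinase PKR, had 5 and 1 (log2 ratio -3.55, -9.57 to -0.84).

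The study also concerned semaphorin 3C, its receptors neuropilin 2 and plexin A1, and the lipoxygenase gene Alox12. Nrp2 was seen in 12 of 18 tumour members and 33 of 54 lymph node members, at 400 CPM (283 to 549) and 335 CPM (273 to 406), a log2 ratio of -0.27 (-0.81 to 0.32). After thinning, 30.8% and 26.3% of members had a UMI, against 1.60% and 0.380% of thinned T cells. Lymph node Fscn1-low cells had 0 UMIs of Nrp2, so that members were at least 23.2-fold higher, and in the tumour members had 38 UMIs against 4 (2.69, 1.37 to 4.79). Plxna1 had 0 UMIs in members of both tissues, under the 31.6 and 9.85 CPM that a count of 0 allows, and Sema3c had 0 and 1. Plxnc1, the receptor of semaphorin 7A, was at 200 CPM (120 to 312) and 305 CPM (246 to 374). Its ligand gene Sema7a was lower in the lymph node, at 358 against 85.4 CPM (-2.06, -2.86 to -1.29). Sema6d had 1 and 45 UMIs (3.24, 1.26 to 9.15).

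Alox12 and Alox15 had 0 UMIs in members of both tissues. Alox5ap, which feeds arachidonic acid to 5-lipoxygenase, had 6 UMIs in the tumour, all in the largest cell, and 2 in the lymph node, against 473 and 554 CPM in Fscn1-low cells. Ltc4s, the leukotriene C4 synthase gene, had 9 and 55 UMIs (log2 ratio 0.87, -0.10 to 2.13). Ptger4, a prostaglandin E2 receptor gene, was seen in 13 of 18 and 33 of 54 members and differed by -0.32 (-0.99 to 0.43). Aldh1a2, an enzyme of retinoic acid synthesis, had 12 UMIs in 3 tumour members and 26 in 12 lymph node members.

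Some genes known to respond to dissociation also differed between the members of the 2 libraries. Of 10 compared, Fos, Fosb and Hspa1a were called higher in the lymph node and none lower, beside 11.1% and 8.74% of all genes compared. The list median was 0.70, and Hsp90aa1 passed 2-fold higher without the largest tumour cell (0.71 with it, 1.29 without). Fos was higher by 1.58 in members, 1.30 in Fscn1-low cells and 1.80 in T cells, and Hspa1a by 1.47, 2.86 and 1.35. Hspa1a was held by 2 of 18 and 14 of 54 members. The part of dissociation in the other differences was not tested.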

How the data were processed

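Single-cell RNA was measured with 10x Genomics 3' libraries, 1 of primary tumours and 1 of lymph nodes, and each library pools 6 mice. The values the authors deposited are unnormalised UMI counts, with 1 matrix per library. The submitters' processing notes name Cell Ranger 2.1.1 and GRCm38, while the matrix headers name cellranger 5.0.0. Cells with over 6000 genes or over 5% mitochondrial UMIs remained among the barcodes, and the study's stated limits were thus not applied before deposit. The methods name DoubletFinder, and whether it was run before deposit is not given in the sources used here.

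The members and gene lists were chosen with earlier results of these data known. UMIs were summed over cells of a gate and scaled to CPM. Intervals are exact 95% Poisson, Clopper-Pearson or conditional intervals, and cover counting error only, since mice and libraries were not replicated. Ratios had 0.5 count added to each sum. A group at 0 was set at a floor of 3 counts over the group. Genes needed at least 50 UMIs, and called means at least 2-fold, with no test, p-value or standard error. Named genes were the 10 furthest higher and 10 furthest lower than Fscn1-low cells by the smaller of the libraries' ratios, and the 8 each way between tissues. They also needed a UMI in at least 25% of cells where higher and, between tissues, a CPM at least 2-fold that of the other kept cells there. List genes with a known role were added. Not every list gene is reported here by name.

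No cell was removed as a doublet. Scrublet (scanpy 1.11.5) called 636 kept tumour cells (6.367%) and 0 lymph node cells, so it did not work there, and no member was called. Sums and intervals were tested on simulated data. Thinning to 1000 UMIs used expected shares. Sums and intervals used scipy 1.17.1 with pandas 2.3.3 and numpy 2.4.6 under python 3.11.15, and plots matplotlib 3.10.9. Gene positions are from the GENCODE annotation of GRCm38 and promoters from RefSeq.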

Additional observations from a re-analysis of the deposited data

Results flagged for a closer look

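For 4 genes the members differed from Fscn1-low cells in opposite directions by at least 2-fold in the 2 libraries, and the difference between the libraries was not tested. Sdc4, a heparan sulphate proteoglycan gene, had a log2 ratio of -1.45 in the tumour and 3.25 in the lymph node. Tnfaip3, an inhibitor of NF-kappaB, had -1.46 and 1.82. Cstb, which encodes the cathepsin inhibitor cystatin B, had -1.39 and 1.29, and Lgmn, a lysosomal protease gene of antigen processing, had -3.00 and 1.97. In members the lymph node over tumour ratios of these genes were 0.47, 0.53, 1.20 and 0.70, while in the Fscn1-low cells, whose makeup differed between the tissues, they were -4.22, -2.75, -1.47 and -4.27.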

How the results depend on the processing

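No paired analysis was possible because each tissue was 1 pooled library, so no result came from a test. Members numbered 17 to 20 in the tumour and 51 to 58 in the lymph node over the alternatives. With genes of at least 20 UMIs, the lymph node held 287 genes at least 2-fold higher and 309 lower than the tumour, while members had 132 higher and 86 lower than Fscn1-low cells in both libraries. The MHC class II median over lymph node Fscn1-low cells was then -0.36 and the survival median 0.81. With at least 2 Ccr7 UMIs, which removed only the largest tumour member, the medians of lymph node members over Fscn1-low cells were 0.75 for the cytoskeleton and 1.47 for MHC class I (the cause was not tested). List medians of at least 2-fold kept their sign, but some nearer 0 did not. Ratios of genes outside the naming rule were recomputed at most without the largest tumour cell. The NF-kappaB median over Fscn1-low cells in the tumour went from -0.16 to 0.06 with at least 2 Ccr7 UMIs and 0.39 with at least 20 UMIs, and its lymph node over tumour median from 0.14 to -0.01 on mean single-cell CPM. The MHC class II median over lymph node Fscn1-low cells went from 0.04 to -0.13 on that mean. Of the other values, 44 counts and 203 list medians stayed near those reported, 26 levels of named genes lay outside their counting intervals, and all 504 ratios of named genes kept their sign and stayed at least 2-fold apart, 5 of them (Lyz2, Ly6e and Lgals3 over Fscn1-low cells) outside their counting intervals. With 18 tumour members, a gene under 31.6 CPM could not be told from 0 there.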

Other observations

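Several genes outside the lists, chosen here after their values were seen, were on the same side of the Fscn1-low cells in both libraries. Some glycolysis genes were called lower in members: the log2 ratios were -1.48 in the tumour and -1.14 in the lymph node for Pkm, -1.64 and -1.90 for Ldha, and -2.17 and -1.06 for Tpi1. Other glycolysis genes were not called, with ratios of -0.67 and -0.23 for Gapdh, -0.72 and -0.18 for Aldoa, and -1.95 and -0.43 for Pgk1. Nr4a3, a nuclear receptor gene linked to dendritic cell migration, was higher by 2.04 and 2.99, and Stat3, a transducer of cytokine signals, by 1.47 and 1.01. Between the tissues Pkm and Ldha were also lower in lymph node members, with ratios of -1.28 and -1.50, beside -1.62 and -1.23 in Fscn1-low cells, while Nr4a3 differed by 0.17 (-0.16 to 0.52).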
